A study of Mus musculus with 9 samples.

Results

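The cartilage and mineralisation genes were 10 listed symbols, Sox9, Acan, Hapln1, Comp, Chad, Cytl1, Runx2, Alpl, Ibsp and Spp1, chosen because old arterial lesions can contain cartilage-like and calcified tissue. Every probe set that the platform annotation gives to one of these symbols alone was a member. This rule found 14 probe sets for 8 genes, out of 18193 genes with a probe set of their own. Sox9 had 3 probe sets, Hapln1 had 4, Ibsp had 2, and Acan, Comp, Chad, Cytl1 and Alpl had 1 each. Runx2, a transcription factor of osteoblasts, and Spp1, which encodes osteopontin, had none under this rule and are not analysed here.

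The 9 samples were aortas of female APOE-/- mice on a C57BL/6 background, labelled as 8 weeks old, which lack apolipoprotein E and develop atherosclerosis. All had eaten 0.2% cholesterol and 10% coconut oil for 30 weeks before 1 injection into the tail vein, and were killed 10 days after it. The HDAd-gE3 mice received a helper-dependent adenovirus, a vector stripped of viral genes, that carries human apoE3. The HDAd-0 mice received the same dose of the empty vector, and the PBS mice received saline. Each group had 3 arrays (HDAd-gE3 replicates 2, 3 and 4, HDAd-0 replicates 3, 4 and 5, PBS replicates 1, 3 and 4), and each array measured the RNA of 3 aortas, from sinus to arch, pooled before extraction. The gene defect and the diet were shared by all groups, so no comparison bears on either of them. The labels do not say which cells take up the vector, and no promoter driving apoE3 is named.

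Cartilage matrix is built from collagen fibrils and from aggrecan held on hyaluronan by link protein, and the transcription factor SOX9 directs chondrocytes to make it. Mineral forms where pyrophosphate, a small inhibitor of crystal growth, is removed by alkaline phosphatase, and acidic proteins such as bone sialoprotein can seed crystals on collagen. In atherosclerotic arteries of mice and humans, smooth muscle-derived cells can take on a chondrocyte-like or osteoblast-like program. In an aorta homogenate, fewer cells of a type and less RNA per cell cannot be told apart.

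Signals were log2 values in which 1 unit is a 2-fold difference, and signals of different probe sets were not compared with each other. Array medians lay between 6.67 and 6.77, and arrays correlated at 0.991 to 0.998 over all probe sets. The mean of 8 smooth muscle markers was 12.61 to 12.66 in HDAd-gE3, 12.42 to 12.51 in HDAd-0 and 12.59 to 12.62 in PBS, and that of 10 macrophage markers was 11.60 to 11.63, 11.75 to 11.86 and 11.66 to 11.70 in the same order, so HDAd-0 was lowest in smooth muscle and highest in macrophage markers without overlap. Markers of other tissues also varied. The mean of 7 skeletal muscle markers was 5.59 to 6.30 in HDAd-gE3, 6.31 to 8.16 in HDAd-0 and 6.36 to 6.62 in PBS, and that of 7 liver markers was 8.19 to 9.10, 8.80 to 10.10 and 7.82 to 8.22 in the same order. The mean of 7 cardiac muscle markers was 12.83 to 13.69 in HDAd-gE3, 12.08 to 12.97 in HDAd-0 and 13.29 to 13.34 in PBS, and that of 8 airway epithelium markers was 7.17 to 8.10, 7.15 to 8.04 and 7.58 to 7.83 in the same order. Of the airway markers, only Foxj1, a regulator of ciliated cells, lay below the lower quartile of all probe set means (4.03 against 4.44), and none of the cardiac markers did. HDAd-0 replicate 4 had the lowest cardiac mean (12.08), near 12.26 in HDAd-0 replicate 3. Its airway mean (7.15) was also the lowest, but close to 7.17 in HDAd-gE3 replicate 3. Its gap between the 3 prime and 5 prime control probe sets of Actb and Gapdh was the largest (1.08, against 0.673 to 0.957 on the other arrays). This gap is a measure of RNA quality. The gap served as the RNA quality covariate in a further fit. It averaged 0.735 in HDAd-gE3, 0.933 in HDAd-0 and 0.866 in PBS, so the covariate cannot be fully told apart from group. The part of the cell and tissue markers in the results below was not tested.

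No member passed the test in any comparison. In the fit over all 45037 probe sets that are not controls (limma, Benjamini-Hochberg adjustment over all of them, adjusted p under 0.05), 0 of 14 member probe sets were called for HDAd-gE3 minus HDAd-0, where 0% of all probe sets were called. The count was 0 of 14 for HDAd-0 minus PBS, where 0.00888% of all probe sets were called, and 0 of 14 for HDAd-gE3 minus PBS, where 0.00222% were. The 3 comparisons share their groups pairwise and are not independent of each other.

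Before adjustment, most member probe sets lay on one side in each comparison. In HDAd-gE3 minus HDAd-0, 11 of 14 probe sets had a higher mean (45.4% of all probe sets did) and 2, of Acan and Alpl, had an unadjusted p under 0.05 (6.08% of all probe sets in that direction). In HDAd-0 minus PBS, 13 of 14 had a lower mean (47.1% of all), with Cytl1 the exception, and 5 had an unadjusted p under 0.05, 1 each of Sox9, Hapln1 and Alpl and 2 of Ibsp (5.75% of all in that direction). In HDAd-gE3 minus PBS, 12 of 14 had a lower mean (51.3% of all), and 2, of Comp and Chad, had an unadjusted p under 0.05 (5.47% of all in that direction). The median difference of the 14 was 0.29, -0.46 and -0.23 in the 3 comparisons, beside -0.02, 0.01 and -0.00474 over all probe sets. The probe sets of 1 gene share its transcripts. By gene, 5 of 8 had a higher mean in HDAd-gE3 minus HDAd-0, and 3, Comp, Chad and Cytl1, had a lower one. In HDAd-0 minus PBS 7 genes were lower and 1 higher. In HDAd-gE3 minus PBS 7 genes had a lower probe set and 2 a higher one, with Sox9 in both counts. With 1 probe set a gene the medians were 0.18, -0.25 and -0.21. With the RNA quality covariate, the median for HDAd-gE3 minus HDAd-0 was -0.10. Leaving out HDAd-0 replicate 4 gave 0.05, and leaving out HDAd-gE3 replicate 3 gave 0.07. Without PBS replicate 4, the median was -0.34 for HDAd-0 minus PBS and -0.07 for HDAd-gE3 minus PBS.

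**Figure D1:**
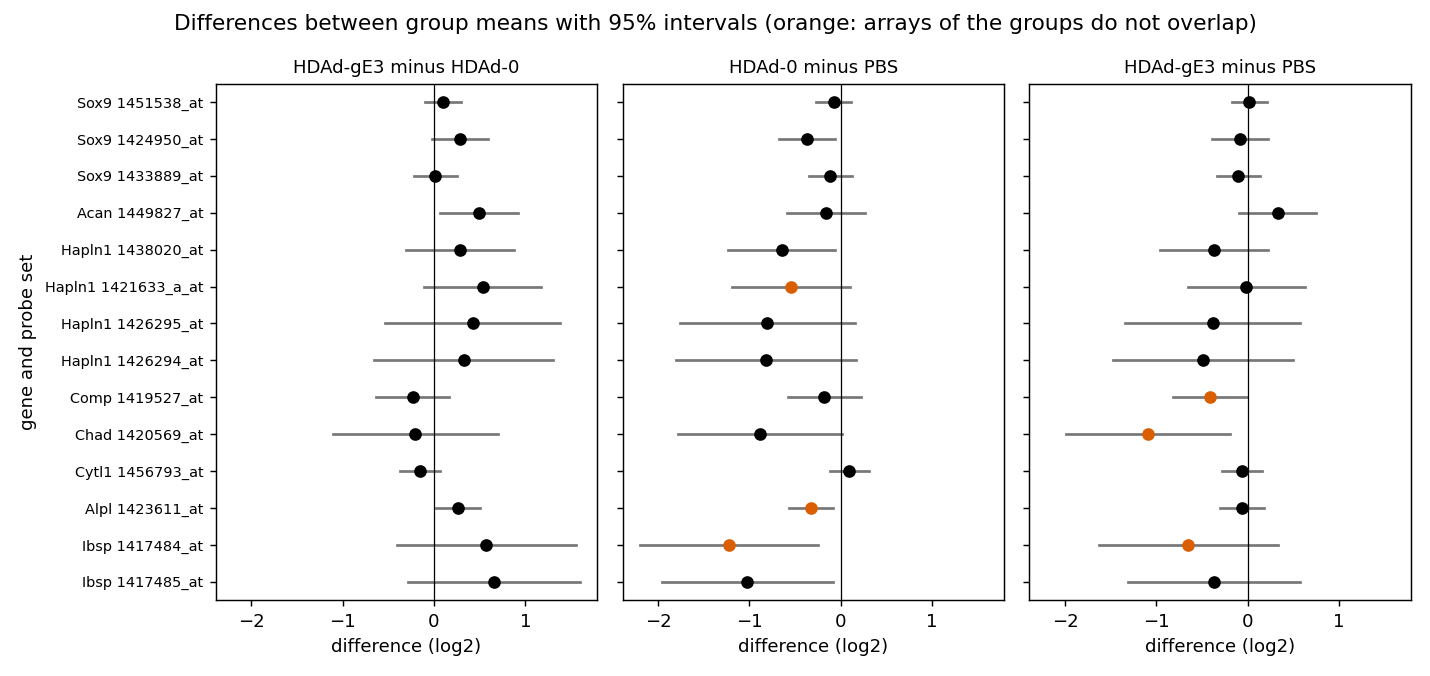
Difference between group means on the log2 scale (horizontal axis, with its 95% confidence interval) for each of the 14 probe sets (rows), 1 panel for each comparison. Orange points mark probe sets whose arrays do not overlap between the groups: 0 for HDAd-gE3 minus HDAd-0, 3 for HDAd-0 minus PBS and 3 for HDAd-gE3 minus PBS, all 6 with a lower mean in the first-named group.

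The genes differed in how far replicate pools of a group lay apart. The pooled SD within groups had a median of 0.137 over all probe sets. It was 0.0966 for the brightest Sox9 probe set, 0.113 for Cytl1 and 0.133 for Alpl, and 0.576 for Chad, 0.373 to 0.631 for Hapln1 and 0.601 and 0.626 for Ibsp. For Chad and Ibsp the HDAd-0 pools lay farthest apart (SD 0.82 for Chad and 1.02 and 0.95 for Ibsp). The same held for Hapln1 1438020_at, with an SD of 0.48 in HDAd-0, 0.35 in HDAd-gE3 and 0.25 in PBS. It also held for 1421633_a_at (0.52, 0.40 and 0.28 in the same order) and narrowly for 1426295_at (0.68, 0.64 and 0.50). For Hapln1 1426294_at the SD was 0.73 in HDAd-gE3, 0.65 in HDAd-0 and 0.48 in PBS. HDAd-0 replicate 4 was the lowest of the 9 arrays for 9 of the 14 member probe sets (all 4 of Hapln1, both of Ibsp, and those of Chad, Cytl1 and Alpl), and it was lowest for 14.9% of all probe sets. It was the highest array for Comp, and for 17.0% of all probe sets. PBS replicate 4 was the highest for 8 of 14, against 11.4% of all probe sets.

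The widest spread was in Ibsp, Hapln1 and Chad, and for the brightest probe set of all 3 HDAd-0 replicate 4 was lowest and PBS replicate 4 highest. Their promoter windows are shown here for that reason. RefSeq windows on GRCm38.p6, from 250 bases before to 50 bases after the start site, were found for 6 of the 8 measured genes, and are given 5′ to 3′. Capitals mark matches, on either strand, to TGTGGT (reverse complement ACCACA), a core sequence bound by RUNX factors, and to ACAAT (reverse complement ATTGT), a core sequence bound by SOX factors. The first occurs in 16.76% of 32841 such windows and the second in 31.03%. A RUNX and a SOX match can share letters, but none of those printed do.
Ibsp, chr5:104299037-104299336, plus strand: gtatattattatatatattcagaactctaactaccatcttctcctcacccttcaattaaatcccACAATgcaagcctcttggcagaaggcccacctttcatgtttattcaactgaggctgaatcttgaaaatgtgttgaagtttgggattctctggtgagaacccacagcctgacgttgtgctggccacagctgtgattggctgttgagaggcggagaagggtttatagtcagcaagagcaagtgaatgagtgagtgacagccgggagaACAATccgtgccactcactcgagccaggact
Hapln1, chr13:89540386-89540685, plus strand: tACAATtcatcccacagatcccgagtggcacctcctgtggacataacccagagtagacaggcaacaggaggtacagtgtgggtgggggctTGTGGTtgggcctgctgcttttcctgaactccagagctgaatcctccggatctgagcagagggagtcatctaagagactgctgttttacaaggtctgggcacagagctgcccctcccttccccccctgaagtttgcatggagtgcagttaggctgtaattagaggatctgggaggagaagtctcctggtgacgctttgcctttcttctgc
Chad, chr11:94564797-94565096, plus strand: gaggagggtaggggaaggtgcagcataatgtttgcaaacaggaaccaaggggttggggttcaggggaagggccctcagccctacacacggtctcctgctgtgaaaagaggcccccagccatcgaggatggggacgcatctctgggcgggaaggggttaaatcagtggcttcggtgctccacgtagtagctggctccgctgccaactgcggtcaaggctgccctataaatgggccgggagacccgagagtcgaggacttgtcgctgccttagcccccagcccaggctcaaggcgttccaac
The Ibsp window held ACAAT at -186 and at 20, counted from the start site as 1, and no RUNX match. The Hapln1 window held ACAAT at -249 and TGTGGT at -160. Chad held neither, as did Acan and Cytl1, and Alpl held ACAAT at 17 in the second of its 2 windows. These matches describe letters in a window and do not show that a factor binds there.

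Sox9, the transcription factor that starts the cartilage program, showed small differences. Its brightest probe set, 1451538_at, read 10.03, 10.10 and 9.88 in HDAd-gE3 replicates 2, 3 and 4, 9.80, 9.90 and 10.01 in HDAd-0 replicates 3, 4 and 5, and 10.06, 9.96 and 9.93 in PBS replicates 1, 3 and 4. The groups overlapped throughout, and their means (10.00 ± 0.11 in HDAd-gE3, 9.90 ± 0.10 in HDAd-0 and 9.98 ± 0.07 in PBS, SD, n = 3 each) differed by at most 0.10, about the spread within a group. A second probe set, 1424950_at, read 7.27, 7.37 and 7.04 in HDAd-gE3, 6.79, 6.88 and 7.15 in HDAd-0, and 7.12, 7.32 and 7.49 in PBS. Here a pair of HDAd-0 pools lay below every other pool and the third did not, at -0.37 ± 0.13 (SE) for HDAd-0 minus PBS (unadjusted p = 0.0227, limma adjusted p = 0.331). The third probe set, 1433889_at, was dim on all arrays (3.28 to 3.70), and was the only member below the lower quartile of all probe set means.

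Acan encodes aggrecan, the large proteoglycan that gives cartilage its stiffness under load. It read 11.30, 11.71 and 11.61 in HDAd-gE3, 10.81, 10.91 and 11.42 in HDAd-0, and 11.19, 10.99 and 11.45 in PBS. A pair of HDAd-gE3 pools lay above every pool of the other groups, while the third lay among them. The means were 11.54 ± 0.21 in HDAd-gE3, 11.05 ± 0.33 in HDAd-0 and 11.21 ± 0.23 in PBS (SD, n = 3 each). HDAd-gE3 was 1.41-fold higher than HDAd-0 on average, a log2 difference of 0.49 ± 0.19 (SE, 95% interval 0.07 to 0.92) that did not pass (unadjusted p = 0.0269, limma adjusted p = 0.344). Against PBS the difference was 0.33 ± 0.19 (limma adjusted p = 0.555), and HDAd-0 minus PBS was -0.16 ± 0.19 (limma adjusted p = 0.756). With the RNA quality covariate, HDAd-gE3 minus HDAd-0 was 0.26 (limma adjusted p = 0.786) and HDAd-gE3 minus PBS was 0.18 (limma adjusted p = 0.823). With all arrays and no covariate, Acan was the only member whose mean was higher in HDAd-gE3 than in both other groups by more than 0.1 on the log2 scale.

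Hapln1 encodes link protein, which ties aggrecan to hyaluronan. The probe set 1438020_at read 9.98, 10.61 and 10.04 in HDAd-gE3, 9.93, 9.45 and 10.41 in HDAd-0, and 10.47, 10.41 and 10.86 in PBS. The PBS pools lay near the top, with HDAd-gE3 replicate 3 and HDAd-0 replicate 5 among them, and HDAd-0 replicate 4 was lowest. The mean was 10.21 ± 0.35 in HDAd-gE3, 9.93 ± 0.48 in HDAd-0 and 10.58 ± 0.25 in PBS (SD, n = 3 each). HDAd-0 minus PBS was -0.65 ± 0.26 (unadjusted p = 0.0346, limma adjusted p = 0.365), and -0.41 when HDAd-0 replicate 4 was left out.

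The other 3 Hapln1 probe sets gave the same order of means, with PBS highest and HDAd-0 lowest. For 1421633_a_at the values were 5.77, 6.54 and 6.01 in HDAd-gE3, 5.94, 4.98 and 5.80 in HDAd-0, and 5.95, 5.97 and 6.44 in PBS. All HDAd-0 pools lay below all PBS pools, by a margin of 0.01 at the closest, for a difference of -0.55 ± 0.28 (limma adjusted p = 0.472). For 1426295_at and 1426294_at HDAd-0 minus PBS was -0.80 ± 0.42 and -0.82 ± 0.43, and the groups overlapped. HDAd-gE3 minus PBS was -0.49 to -0.01 over the 4 probe sets (limma adjusted p 0.642 to 0.993), and HDAd-gE3 minus HDAd-0 was 0.28 to 0.53 (limma adjusted p 0.454 to 0.768). Without HDAd-0 replicate 4, HDAd-gE3 minus HDAd-0 came to 0.04 for 1438020_at and to -0.03 for 1426294_at.

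Comp encodes cartilage oligomeric matrix protein, which binds collagens and is also made by vascular smooth muscle. It read 11.71, 11.53 and 11.45 in HDAd-gE3, 11.55, 12.23 and 11.61 in HDAd-0, and 11.86, 11.91 and 12.16 in PBS. Every HDAd-gE3 pool lay below every PBS pool, and HDAd-0 replicate 4, the lowest pool for most other members, was the highest here. HDAd-gE3 averaged 11.56 ± 0.14, HDAd-0 11.80 ± 0.38 and PBS 11.98 ± 0.16 (SD, n = 3 each). HDAd-gE3 was 1.33-fold lower than PBS on average, at -0.41 ± 0.18 (95% interval -0.82 to -0.00859, unadjusted p = 0.0462, limma adjusted p = 0.446). HDAd-gE3 minus HDAd-0 was -0.23 ± 0.18 (limma adjusted p = 0.588), and HDAd-0 minus PBS was -0.18 ± 0.18 (limma adjusted p = 0.718). Without HDAd-0 replicate 4, HDAd-0 minus PBS was -0.40 (limma adjusted p = 0.137) and HDAd-gE3 minus HDAd-0 was -0.02. Without HDAd-0 replicate 3 they were -0.06 and -0.36. With the RNA quality covariate, HDAd-gE3 minus PBS was -0.23.

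Chad encodes chondroadherin, a leucine-rich repeat protein that binds collagen and cell-surface integrin. It read 9.10, 9.64 and 9.39 in HDAd-gE3, 9.87, 8.65 and 10.21 in HDAd-0, and 10.17, 10.18 and 11.04 in PBS. All HDAd-gE3 pools lay below all PBS pools, and the HDAd-0 pools ran from below the HDAd-gE3 range into the PBS range. The means were 9.37 ± 0.27 in HDAd-gE3, 9.58 ± 0.82 in HDAd-0 and 10.46 ± 0.50 in PBS (SD, n = 3 each). HDAd-gE3 was 2.12-fold lower than PBS on average, a log2 difference of -1.09 ± 0.40 (95% interval -1.99 to -0.19, unadjusted p = 0.0233, limma adjusted p = 0.38). It ran from -1.23 to -0.80 when each array was left out in turn. HDAd-0 minus PBS was -0.88 ± 0.40 (limma adjusted p = 0.412), and -0.42 when HDAd-0 replicate 4 was left out. HDAd-gE3 minus HDAd-0 was -0.20 ± 0.40 (limma adjusted p = 0.849), with a 95% interval of -1.10 to 0.70 that leaves room for a 2-fold difference, and -0.67 without that array.

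Cytl1 encodes a small secreted protein known from cartilage. It read 12.36, 12.37 and 12.39 in HDAd-gE3, 12.61, 12.33 and 12.64 in HDAd-0, and 12.39, 12.37 and 12.54 in PBS. The HDAd-gE3 pools were nearly equal, and HDAd-0 held both the highest and the lowest pool. The largest difference between means was -0.15 ± 0.09 for HDAd-gE3 minus HDAd-0 (limma adjusted p = 0.512), which was -0.25 without HDAd-0 replicate 4 (limma adjusted p = 0.143). HDAd-0 minus PBS, at 0.09 ± 0.09, was the only positive difference among the members in that comparison.

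**Figure D2:**
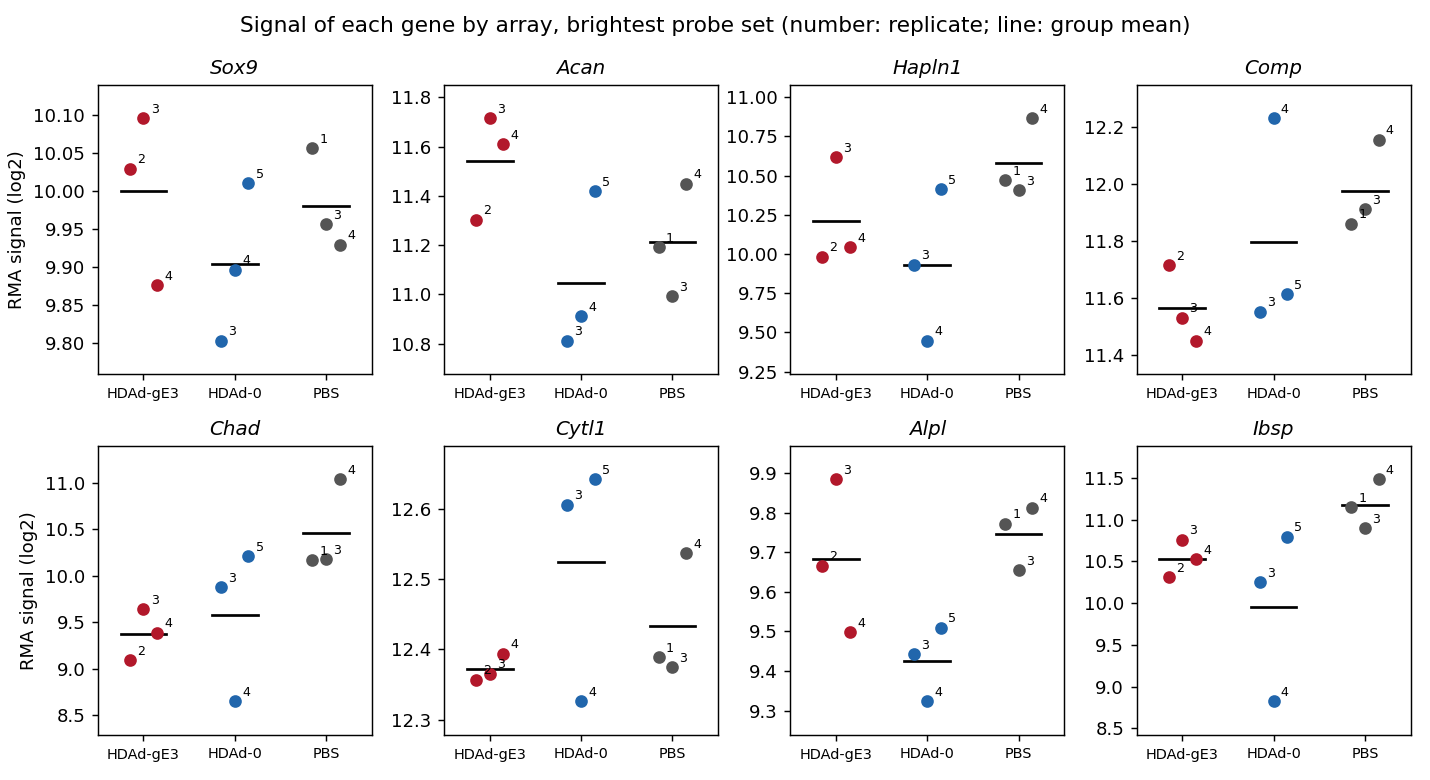
RMA signal on the log2 scale (vertical axis) of the brightest probe set of each of the 8 genes, by group, with 1 point for each array, its replicate number beside it and a line at the group mean. Each panel has its own axis, and signals cannot be compared between panels. HDAd-0 replicate 4 lies lowest for Hapln1, Chad, Cytl1, Alpl and Ibsp and highest for Comp.

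Of the mineralisation genes, Alpl encodes tissue-nonspecific alkaline phosphatase, the enzyme that breaks down pyrophosphate. It read 9.67, 9.89 and 9.50 in HDAd-gE3, 9.44, 9.32 and 9.51 in HDAd-0, and 9.77, 9.65 and 9.81 in PBS. The HDAd-0 pools lay below all PBS pools and met the HDAd-gE3 range only at one point, where HDAd-gE3 replicate 4 and HDAd-0 replicate 5 differed by 0.01. The means were 9.68 ± 0.19 in HDAd-gE3, 9.42 ± 0.09 in HDAd-0 and 9.75 ± 0.08 in PBS (SD, n = 3 each). HDAd-0 was 1.25-fold lower than PBS on average, at -0.32 ± 0.11 (95% interval -0.56 to -0.08, unadjusted p = 0.0145, limma adjusted p = 0.297). The difference was -0.37 to -0.27 when each array was left out in turn. HDAd-gE3 minus HDAd-0 was 0.26 ± 0.11 (unadjusted p = 0.0379, limma adjusted p = 0.37). It was 0.10 with the RNA quality covariate, and 0.16 (HDAd-gE3 replicate 3 left out) to 0.35 over single arrays left out. HDAd-gE3 and PBS were neighbours in order, at -0.06 ± 0.11 (limma adjusted p = 0.87, 95% interval -0.30 to 0.18).

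Ibsp encodes bone sialoprotein, a matrix protein of mineralising cartilage and bone that can seed crystals. The probe set 1417484_at read 10.31, 10.76 and 10.53 in HDAd-gE3, 10.25, 8.82 and 10.80 in HDAd-0, and 11.15, 10.90 and 11.49 in PBS. The 3 PBS pools were the highest of the 9, and HDAd-0 replicate 4 lay 1.43 below the next HDAd-0 pool. The means were 10.53 ± 0.23 in HDAd-gE3, 9.96 ± 1.02 in HDAd-0 and 11.18 ± 0.29 in PBS (SD, n = 3 each). HDAd-0 was 2.33-fold lower than PBS on average, a log2 difference of -1.22 ± 0.43 (95% interval -2.20 to -0.25, unadjusted p = 0.0199, limma adjusted p = 0.321). HDAd-gE3 minus PBS was -0.65 ± 0.43 (limma adjusted p = 0.62), also without overlap.

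The size of the Ibsp differences that involve HDAd-0 depended on 1 array. Without HDAd-0 replicate 4, HDAd-0 minus PBS was -0.66 (limma adjusted p = 0.191), close to the -0.65 of HDAd-gE3 minus PBS, and HDAd-gE3 minus HDAd-0 was 0.00828, against 0.57 ± 0.43 with all arrays (limma adjusted p = 0.582). With the RNA quality covariate, HDAd-gE3 minus HDAd-0 was -0.27 and HDAd-gE3 minus PBS was -1.21. The second probe set, 1417485_at, read 7.93, 8.62 and 8.20 in HDAd-gE3, 7.52, 6.68 and 8.58 in HDAd-0, and 8.63, 8.37 and 8.85 in PBS. The same HDAd-0 pool was lowest, and here the PBS pools overlapped with both vector groups. HDAd-0 minus PBS was -1.02 ± 0.41 (unadjusted p = 0.0356, limma adjusted p = 0.368), and -0.57 without that array.

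Members whose arrays did not overlap numbered 0 of 14 for HDAd-gE3 against HDAd-0, where 15.9% of all probe sets did not overlap in either direction. For HDAd-0 below PBS there were 3 of 14, of Hapln1, Alpl and Ibsp, where 7.46% of all probe sets lay lower without overlap. For HDAd-gE3 below PBS there were 3 of 14, of Comp, Chad and Ibsp, where 10.3% of all did. By exact permutation of 3 against 3 arrays the smallest two-sided p is 0.1, so no single gene could reach 0.05 that way.

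**Figure D3:**
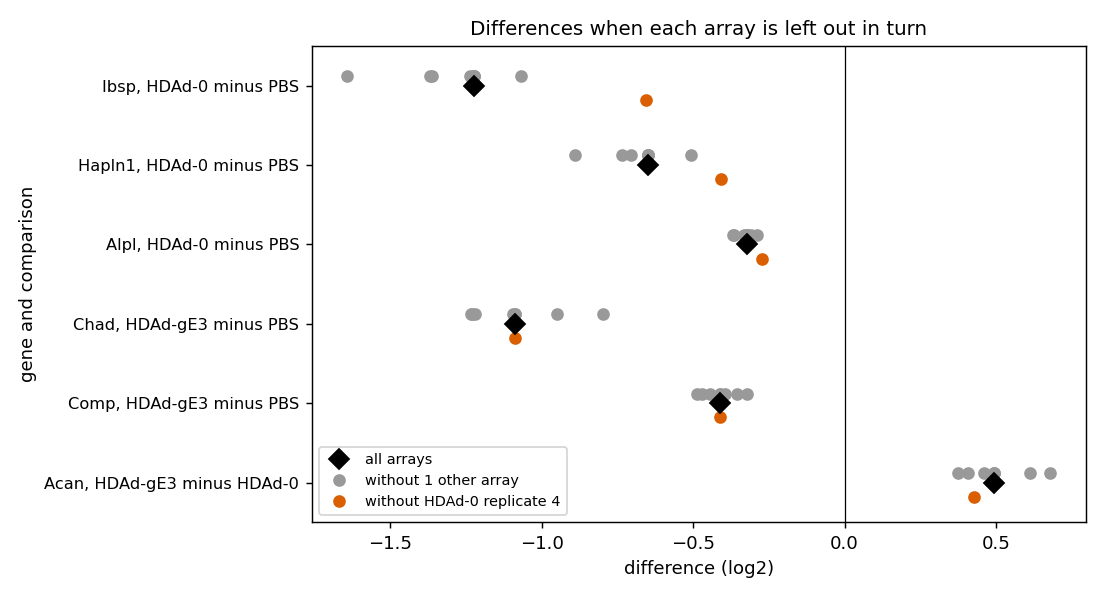
Log2 difference (horizontal axis) for 6 genes, 1 comparison each, over all arrays (black diamond) and with each array left out in turn (grey, and orange for HDAd-0 replicate 4). Each comparison shown had an unadjusted limma p under 0.05 with all arrays. The points shown stay on their side of 0, and HDAd-0 minus PBS for Ibsp is nearest to 0 without HDAd-0 replicate 4, at -0.66. Comparisons not shown could change sign, such as HDAd-gE3 minus HDAd-0 for Chad (-0.668 to 0.112).

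Likeness of pattern was described by Pearson's r over the 9 arrays between the brightest probe set of each gene and 20104 probe sets of other single genes with at least median signal. All values share the 9 arrays and their group differences, and the highest of so many values is large by selection. The nearest probe set to Hapln1 was the second Ibsp probe set, at 0.951, and 0.917 without HDAd-0 replicate 4. Next came Eif1a, a translation initiation factor, at 0.948, and Med1, a Mediator subunit, at 0.947. Ibsp itself was nearest to Tmem41b at 0.974, Derl2 at 0.972 and Cbx1 at 0.967. Chad was nearest to both Spsb4 probe sets, at 0.959 and 0.952, and to Pdp1 at 0.951. The nearest to the others were Tsc22d1 for Comp (0.974), Zfp185 for Cytl1 (0.968), Bcl9 for Acan (0.938), Fbxo28 for Alpl (0.929) and Rbm39 for Sox9 (0.927). Apart from Ibsp for Hapln1, no cartilage or mineralisation member stood among the nearest 3 of another.

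Other cartilage genes were taken from a list of 30 collagens, matrix proteins and regulators, of which 29 were measured, each by its brightest probe set. None was called in any comparison, and the list's median differences were 0.02, -0.15 and -0.08 for HDAd-gE3 minus HDAd-0, HDAd-0 minus PBS and HDAd-gE3 minus PBS. Col11a1, a fibrillar cartilage collagen, read 5.88, 6.97 and 6.37 in HDAd-gE3, 5.70, 4.82 and 5.61 in HDAd-0, and 6.25, 6.12 and 6.76 in PBS. All HDAd-0 pools lay below all others, at 1.03 ± 0.32 for HDAd-gE3 minus HDAd-0 (limma adjusted p = 0.282) and -0.999 ± 0.32 for HDAd-0 minus PBS (limma adjusted p = 0.292). Ucma, a matrix protein of growth-zone chondrocytes, was -0.84 ± 0.25 for HDAd-0 minus PBS (limma adjusted p = 0.265), without overlap. For HDAd-gE3 minus PBS the smallest p-values were those of Sox6, a partner of SOX9, at 0.29 ± 0.09 (limma adjusted p = 0.315), and of Ihh, a signal of prehypertrophic chondrocytes, at -0.43 ± 0.14 (limma adjusted p = 0.343). Papss2, which makes the sulfate donor for proteoglycans, was -0.16 ± 0.06 for HDAd-gE3 minus HDAd-0 (limma adjusted p = 0.356).

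The low signal of HDAd-0 replicate 4 was also seen in collagens of the list. HDAd-0 replicate 4 was the lowest array for 9 of the 29 genes, namely Col2a1, Col9a1, Col9a2, Col9a3, Col10a1, Col11a1, Col11a2, Cnmd and Snorc, which are named here after their values were seen. It was the highest for 4 others, Matn2, Prg4, Chst11 and Vcan. Over all probe sets it was lowest for 14.9% and highest for 17.0%. Col10a1, the collagen of hypertrophic chondrocytes, read 6.56, 7.58 and 6.92 in HDAd-gE3, 7.33, 4.70 and 7.05 in HDAd-0, and 6.92, 7.02 and 7.39 in PBS. Col2a1, the main collagen of cartilage, read 10.95, 11.99 and 11.33 in HDAd-gE3, 10.86, 9.79 and 11.02 in HDAd-0, and 10.99, 10.93 and 11.22 in PBS. In both, HDAd-0 replicate 4 lay more than 1 unit below every other array. PBS replicate 4 was the highest array for 11 of the 29 genes.

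**Figure D4:**
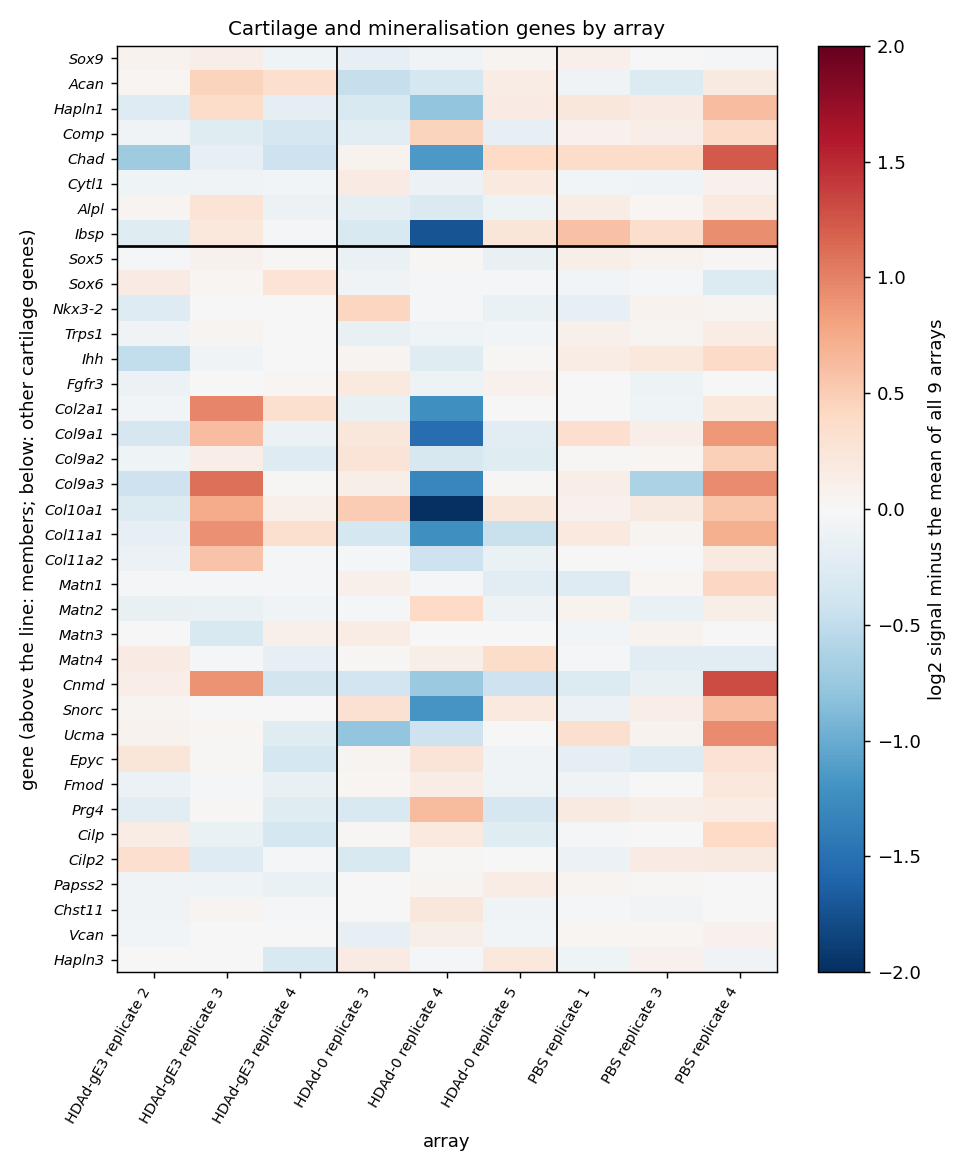
Log2 signal minus the mean of all 9 arrays (colour scale, red above and blue below) for the 8 measured genes (rows above the line, brightest probe set) and 29 other cartilage genes (rows below it), with the arrays in columns by group. The HDAd-0 replicate 4 column is blue for Hapln1, Chad, Ibsp and several collagens and red for Comp, and the PBS replicate 4 column is red for many of the same genes.

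The osteoblast list (regulators and bone matrix, 16 of 19 genes measured) had 0 calls in each comparison. Sp7, the osteoblast transcription factor osterix, was -0.68 ± 0.33 for HDAd-0 minus PBS (limma adjusted p = 0.446), narrowly without overlap. It read 5.97, 4.82 and 6.17 in HDAd-0 replicates 3, 4 and 5, and 6.23, 6.22 and 6.54 in PBS replicates 1, 3 and 4. In the same comparison Omd, a keratan sulfate proteoglycan of bone, was -0.40 ± 0.17 (limma adjusted p = 0.405). For HDAd-gE3 minus HDAd-0 the smallest p-values were those of Msx2, a homeobox regulator, at -0.23 ± 0.08 (limma adjusted p = 0.31), and Sost, which encodes the WNT inhibitor sclerostin, at 0.35 ± 0.12 (limma adjusted p = 0.319). For HDAd-gE3 minus PBS they were Msx2 at -0.14 ± 0.08 (limma adjusted p = 0.559) and Mepe, a phosphoglycoprotein of bone matrix, at -0.66 ± 0.40 (limma adjusted p = 0.582). HDAd-0 replicate 4 was the lowest array for 4 of the 16 genes (Sp7, Mepe, Omd and Phex) and the highest for 3 (Msx2, Twist1 and Ifitm5). Over all probe sets this array was lowest for 14.9% and highest for 17.0%. HDAd-gE3 replicate 2 was lowest for 5 of the 16 genes, and for 12.7% of all probe sets.

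The bone morphogenetic protein (BMP) pathway signals upstream of both Sox9 and Runx2, and all 22 listed genes were measured, with 0 calls. Bmp6, a BMP ligand, read 9.90, 9.97 and 9.78 in HDAd-gE3, 10.56, 10.25 and 10.72 in HDAd-0, and 9.94, 10.07 and 10.11 in PBS. Every HDAd-0 pool lay above every other pool, at -0.63 ± 0.12 for HDAd-gE3 minus HDAd-0 (limma adjusted p = 0.181) and 0.47 ± 0.12 for HDAd-0 minus PBS (limma adjusted p = 0.215). Without HDAd-0 replicate 4 both passed, at -0.76 ± 0.09 (limma adjusted p = 0.0317) and 0.60 ± 0.09 (limma adjusted p = 0.0357). That fit called 402 and 542 of all probe sets in these comparisons, against 0 and 4 with all arrays. Chrdl1, a BMP antagonist, read 9.94, 10.02 and 10.00 in HDAd-gE3, 10.49, 10.38 and 10.26 in HDAd-0, and 10.18, 10.21 and 10.24 in PBS. Its 3 groups did not overlap, at -0.39 ± 0.07 for HDAd-gE3 minus HDAd-0 (limma adjusted p = 0.176) and -0.22 ± 0.07 for HDAd-gE3 minus PBS (limma adjusted p = 0.34). Acvrl1, a receptor of endothelial cells, was 0.20 ± 0.06 for HDAd-0 minus PBS (limma adjusted p = 0.279). The mean of 6 endothelial markers was 10.42 to 10.53 in HDAd-gE3, 10.60 to 10.80 in HDAd-0 and 10.26 to 10.36 in PBS. HDAd-0 was thus highest without overlap, and the part of these markers in the values of Bmp6 and Acvrl1 was not tested. Id1, a target gene of the pathway, was 0.33 ± 0.11 for HDAd-gE3 minus PBS (limma adjusted p = 0.356).

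Of a mixed list of mineralisation inhibitors, genes of phosphate handling and others such as Car2, 15 of 17 were measured, with 0 calls. Car2, the carbonic anhydrase that osteoclasts use to acidify bone and that other cells also make, read 12.22, 12.12 and 12.47 in HDAd-gE3, 12.11, 11.36 and 11.28 in HDAd-0, and 10.51, 10.44 and 10.78 in PBS. The 3 groups did not overlap, with HDAd-gE3 highest and PBS lowest. HDAd-gE3 minus PBS was 1.69 ± 0.21, just short of the threshold (limma adjusted p = 0.054), and it passed with 1 probe set a gene (limma adjusted p = 0.0369). HDAd-0 minus PBS was 1.003 ± 0.21 (limma adjusted p = 0.174). Nt5e, the ectoenzyme that makes adenosine and whose loss causes arterial calcification in humans, was -0.43 ± 0.09 for HDAd-gE3 minus PBS (limma adjusted p = 0.191) and -0.33 ± 0.09 for HDAd-gE3 minus HDAd-0 (limma adjusted p = 0.258), without overlap in either. Abcc6, a transporter whose loss causes ectopic calcification, was dim (3.22 to 3.78), at -0.28 ± 0.08 for HDAd-gE3 minus HDAd-0 (limma adjusted p = 0.243) and 0.38 ± 0.08 for HDAd-0 minus PBS (limma adjusted p = 0.171).

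Of 7 genes for proteases that degrade cartilage or for their inhibitors, 0 were called. Mmp13, the collagenase of hypertrophic cartilage, read 9.07, 9.25 and 9.16 in HDAd-gE3, 9.61, 10.31 and 9.20 in HDAd-0, and 10.17, 10.01 and 10.17 in PBS. The HDAd-gE3 pools lay 0.76 or more below the PBS pools, at -0.96 ± 0.23 (limma adjusted p = 0.223), and HDAd-0 lay across the gap. Without HDAd-0 replicate 4, its highest pool, HDAd-0 minus PBS passed at -0.71 ± 0.13 (limma adjusted p = 0.0498), against -0.41 ± 0.23 with all arrays. That fit called 542 of all probe sets for HDAd-0 minus PBS, against 4 with all arrays. Adamts4, an aggrecanase, was -0.32 ± 0.15 for HDAd-0 minus PBS (limma adjusted p = 0.429), without overlap. Adamts5, another aggrecanase, was 0.16 ± 0.09 for HDAd-0 minus PBS (limma adjusted p = 0.486).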

How the data were processed

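Per the labels' protocols, pooled RNA was amplified with the FL-Ovation kit, labelled with biotin and hybridised. The values are the log2 signals the authors deposited, 1 table of 45101 probe sets that the submitters' processing notes credit to RMA, with no version given. RMA equalises the arrays' distributions and so hides a shift common to most genes. By the platform annotation, 34945 probe sets have 1 gene, 932 have several and 9160 have none. After 64 control probe sets were left out, the other 45037 entered 1 linear model of 3 group means over 9 arrays (lmFit and eBayes of limma 3.58.1 in R 4.3.3, 6 residual degrees of freedom). Two-sided p were adjusted by Benjamini-Hochberg over all of them, with a threshold of 0.05. The procedure was tested on simulated data with independent noise for each probe set and array. Such data hold no deviation of 1 array that many genes share.

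The members and lists were chosen with earlier results of these data known. All member probe sets are named, and from each list the genes called in a comparison, or else the 2 with the smallest p. Alternatives changed the probe sets, a filter on dim signal, centring, an intensity trend, array weights, the samples in the fit, a covariate for RNA quality, a replicate block and single arrays left out. The groups share only the replicate numbers 3 and 4. Deviations from group means correlated at 0.0112 to 0.128 over 6 pairs of like number and at -0.206 to 0.189 over 21 pairs of unlike number. All 6 pairs of like number were positive, but within the range of the others, which cannot settle whether replicates were paired. The labels state no pairing, and the numbers were not used as pairs in the main fit. Running numbers in the sample titles separate the groups, and any processing order they mark cannot be told apart from group. The number of arrays limits the precision. Promoter windows are RefSeq sequences of GRCm38.p6. No build is named for the probe sets, so gene coordinates are not printed. Figures were drawn with matplotlib 3.10.9.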

Additional observations from a re-analysis of the deposited data

How the results depend on the processing

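Every member probe set that entered a fit stayed short of the threshold under all 17 alternatives in each comparison (8 enter with 1 probe set a gene). What moved was the count over all probe sets, 0, 4 and 1 for HDAd-gE3 minus HDAd-0, HDAd-0 minus PBS and HDAd-gE3 minus PBS. With 1 probe set a gene it was 1, 12 and 23. For HDAd-gE3 minus PBS it was 37 without dim probe sets, 279 with array weights and 86 with an intensity trend, which gave 23 for HDAd-0 minus PBS. With only the 2 groups compared, HDAd-0 minus PBS had 0 and HDAd-gE3 minus PBS had 12. The replicate block, a fit with the replicate number as a term, gave 0 for both of these and 0 member calls, with Ibsp 1417484_at at -1.66 for HDAd-0 minus PBS (limma adjusted p = 0.484) and Acan at 0.80 for HDAd-gE3 minus HDAd-0 (limma adjusted p = 0.399). The labels do not pair the replicates. The 3 prime minus 5 prime control signal as a covariate gave 0 for both as well, and turned the members' median for HDAd-gE3 minus HDAd-0 to -0.103. Leaving out 1 array at a time gave 0 to 402, 0 to 542 and 0 to 12 called probe sets, with 402 and 542 without HDAd-0 replicate 4, which had the lowest array weight (0.364), and 12 without HDAd-0 replicate 3. The members' medians without 1 array ran from 0.05 (without HDAd-0 replicate 4) to 0.46 (without HDAd-0 replicate 5), from -0.57 to -0.34 and from -0.31 to -0.07 (without PBS replicate 4). The causes were not tested.

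Counts over the lists under the alternatives were chosen after seeing the data. Car2 was the 1 gene called for HDAd-gE3 minus PBS from the mixed list of mineralisation inhibitors and phosphate handling genes. The settings were 1 probe set a gene, no dim probe sets, an intensity trend, array weights and only the 2 groups compared. Over single arrays left out the list's count was 0 to 1, with 1 without HDAd-0 replicate 3. Mmp13 was the 1 protease gene called for HDAd-gE3 minus PBS with array weights and with only the 2 groups compared, and for HDAd-0 minus PBS the count was 0 to 1 over single arrays left out. Bmp6 was the 1 BMP gene called without HDAd-0 replicate 4, with counts of 0 to 1 over single arrays left out for HDAd-gE3 minus HDAd-0 and for HDAd-0 minus PBS.

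Of 693 member differences under the alternatives, 29 had the opposite sign. Centring arrays on their medians gave -0.0505 for Sox9 1433889_at (HDAd-gE3 minus HDAd-0) and -0.0194 for Sox9 1451538_at (HDAd-gE3 minus PBS). Array weights gave 0.169 for Hapln1 1421633_a_at and 0.0119 for Alpl (HDAd-gE3 minus PBS). The covariate gave, for HDAd-gE3 minus HDAd-0, -0.0317 for Sox9 1451538_at, -0.188, -0.175 and -0.282 for Hapln1 1438020_at, 1426295_at and 1426294_at, 0.0376 for Comp, and -0.272 and -0.241 for Ibsp 1417484_at and 1417485_at, and -0.0654 for Sox9 1451538_at in HDAd-gE3 minus PBS. The replicate block gave -0.0103 for Sox9 1433889_at and 0.251 for Chad (HDAd-gE3 minus HDAd-0), and 0.0712 for Hapln1 1421633_a_at (HDAd-gE3 minus PBS). Over single arrays left out, HDAd-gE3 minus HDAd-0 ran from -0.0302 to 0.0736 for Sox9 1433889_at, -0.0789 to 0.631 for Hapln1 1426294_at and -0.668 to 0.112 for Chad. HDAd-gE3 minus PBS ran from -0.23 to 0.16 for Hapln1 1421633_a_at, -0.0280 to 0.0818 for Sox9 1451538_at, -0.18 to 0.00966 for Sox9 1424950_at and -0.164 to 0.0293 for Alpl.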

Other observations

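Osteoclasts resorb mineral and share much of their program with lesion macrophages, and all 12 listed osteoclast genes were measured, with 0 calls in each comparison. Dcstamp, needed for fusion of osteoclast precursors, was -0.44 ± 0.17 for HDAd-gE3 minus PBS (limma adjusted p = 0.407), without overlap. Mmp9, a gelatinase that neutrophils also carry, was 0.77 ± 0.32 (limma adjusted p = 0.428), and the mean of 7 neutrophil markers was 9.81 to 11.13 in HDAd-gE3, 8.82 to 9.44 in HDAd-0 and at most 9.34 in PBS, whose part in this was not tested. Tnfrsf11a, the RANK receptor, was -0.22 ± 0.09 for HDAd-gE3 minus HDAd-0 (limma adjusted p = 0.363), and Atp6v0d2, a proton pump subunit, was -0.18 ± 0.07 (limma adjusted p = 0.378). Acp5, tartrate-resistant acid phosphatase, was 0.24 ± 0.09 for HDAd-0 minus PBS (limma adjusted p = 0.35). The mean of 10 macrophage markers was 11.60 to 11.63 in HDAd-gE3, 11.75 to 11.86 in HDAd-0 and 11.66 to 11.70 in PBS, without overlap between any groups, and its part in the values of Dcstamp, Tnfrsf11a, Atp6v0d2 and Acp5 was not tested.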
